A study of Mus musculus with 2 samples.

Results

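Fat cells take up fatty acids from the blood and from the triglyceride of lipoproteins, and 10 genes of that route were followed through both libraries of mouse adipose tissue. They were chosen by gene symbol: Lpl, Gpihbp1, Lmf1 and Angptl4 for release at the capillary wall, Cd36, Slc27a1 and Slc27a4 for entry, Acsl1 for activation, and Fabp4 and Fabp5 for transport in the cytosol. They were 10 of 43346 mouse gene entries, with 42 of 103639 mouse transcripts. The tissue came from a male C57BL/6J mouse aged 10 weeks, and polyadenylated RNA of 1 biosample was sequenced as technical libraries 1 and 2. All samples form a single group, with no treatment and no control in the labels, which do not name the fat depot. Library 2 was made in 2015, after the work published in 2014, so a difference between the libraries and one between preparation dates cannot be told apart. An SD below measures technical spread over n = 2 libraries of the same biosample, and the design holds no comparison of conditions.

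Lipoprotein lipase is made in adipocytes, folds with the help of a maturation factor in the endoplasmic reticulum, and is carried by GPIHBP1 to the lumen of capillaries, where it releases fatty acids from triglyceride. ANGPTL4 inactivates the enzyme. The released fatty acids enter adipocytes with the help of CD36 and fatty acid transport proteins, are bound by fatty acid-binding proteins and are joined to coenzyme A by acyl-CoA synthetases before they are stored.

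The libraries held 19954869 and 19256809 expected counts, which are the numbers of reads estimated to come from each gene. Levels are given in TPM, a share of all transcripts that takes transcript length into account. Mitochondrial genes with their nuclear copies made up 51.7% of TPM in library 1 but 15.9% in library 2, which leaves less of the total to nuclear genes in library 1. All 12 adipocyte markers stood at 1 TPM or more in both libraries, and their levels summed to 8738 TPM in the former and 17409 TPM in the latter. The sum in library 1 was mostly Car3, which stood at 7271 TPM there and 6988 TPM in library 2. Cfd, the next highest by mean TPM, stood at 69.3 and 4561 TPM. All 12 markers of epididymis epithelium also stood at 1 TPM or more in both libraries and summed to 50216 and 60001 TPM, so the material was not adipose tissue alone by these markers. The part of the epididymis in the levels below was not tested. In bulk tissue, fewer cells of a type and less RNA per cell cannot be told apart.

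The coding sequence of these genes spans a wide range of base composition. It was GC content over all annotated transcripts that was set against the difference between the libraries below, not that of the coding sequence. The middle 120 bases of the longest coding exon are shown for 6 members. Among them Cd36, with the least G and C, had the lowest ratio of library 2 to library 1, and Gpihbp1 and Slc27a1, with the most, had the highest. The 6 were picked with these ratios known, and the order did not hold for all members. Lmf1 and Slc27a4, not shown, had log2 ratios of 3.48 and 3.41, above the 3.31 of Slc27a1, with less GC in their transcripts. The Acsl1 window held 58.3% G and C, and the log2 ratio of Acsl1 was -0.31. The Fabp4 and Lpl windows both held 46.7%, and their ratios were -0.24 and -1.07. G and C are in capitals, and the sequences run 5′ to 3′ along the transcript. They are from GENCODE M21 transcripts on mm10, at chr5:17797030-17797149 on the minus strand for Cd36, chr3:10205976-10206095 on the minus strand for Fabp4, and on the plus strand chr8:68896660-68896779 for Lpl, chr8:46492869-46492988 for Acsl1, chr15:75597866-75597985 for Gpihbp1 and chr8:71579541-71579660 for Slc27a1.
Cd36-204: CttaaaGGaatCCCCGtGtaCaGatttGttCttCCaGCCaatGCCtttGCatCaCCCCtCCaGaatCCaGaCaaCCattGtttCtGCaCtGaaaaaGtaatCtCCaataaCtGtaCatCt
Fabp4-201: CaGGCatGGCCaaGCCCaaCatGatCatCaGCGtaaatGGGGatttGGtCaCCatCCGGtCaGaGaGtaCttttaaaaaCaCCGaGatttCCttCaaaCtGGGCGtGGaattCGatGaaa
Lpl-201: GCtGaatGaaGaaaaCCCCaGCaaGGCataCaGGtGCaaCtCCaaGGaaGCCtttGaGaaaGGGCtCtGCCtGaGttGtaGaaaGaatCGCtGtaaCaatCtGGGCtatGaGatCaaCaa
Acsl1-201: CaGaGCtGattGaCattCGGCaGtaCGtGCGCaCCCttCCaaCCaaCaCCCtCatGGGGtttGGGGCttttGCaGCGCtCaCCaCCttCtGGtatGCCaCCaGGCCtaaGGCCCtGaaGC
Gpihbp1-201: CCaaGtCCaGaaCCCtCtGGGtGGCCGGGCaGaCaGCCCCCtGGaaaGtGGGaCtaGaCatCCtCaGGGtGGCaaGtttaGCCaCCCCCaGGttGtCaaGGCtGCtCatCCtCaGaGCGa
Slc27a1-201: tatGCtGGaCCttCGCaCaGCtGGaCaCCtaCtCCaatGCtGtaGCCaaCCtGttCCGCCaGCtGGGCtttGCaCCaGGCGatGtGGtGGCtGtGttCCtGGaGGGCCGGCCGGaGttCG
The Cd36 window held 42.5% G and C and the Slc27a1 window 61.7%. Over the whole coding sequence the shares were 41.5% for Cd36, 48.5% for Fabp4, 50.8% for Lpl, 49.9% for Acsl1, 56.0% for Gpihbp1 and 61.2% for Slc27a1.

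The carrier Fabp4, the lipase Lpl, the uptake receptor Cd36 and the synthetase Acsl1 were the most abundant of the 10 genes in terms of mean TPM, and these 4 stood at 100 TPM or more in both libraries. Fabp4 came first, at 5089 ± 1438 TPM (SD, n = 2), and took 58.5% of the summed TPM of the 10 genes in library 1 and 67.5% in library 2. The 10 genes together made up 0.696% of all TPM in library 1, against 0.904% in library 2. With the mitochondrial genes and their copies left out of the total the direction turned, to 1.44% in library 1 and 1.07% in library 2. In order of mean TPM, Lpl, Cd36, Acsl1, Angptl4, Slc27a1, Fabp5, Gpihbp1, Slc27a4 and Lmf1 followed. The ranges of the first 4 genes in that order did not overlap with each other. From Acsl1 downwards, each of the other 6 neighbouring pairs overlapped between the libraries. In 7 of the 9 neighbouring pairs the same gene was higher in both libraries, and the exceptions were Slc27a1 beside Fabp5 and Fabp5 beside Gpihbp1.

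**Figure D1:**
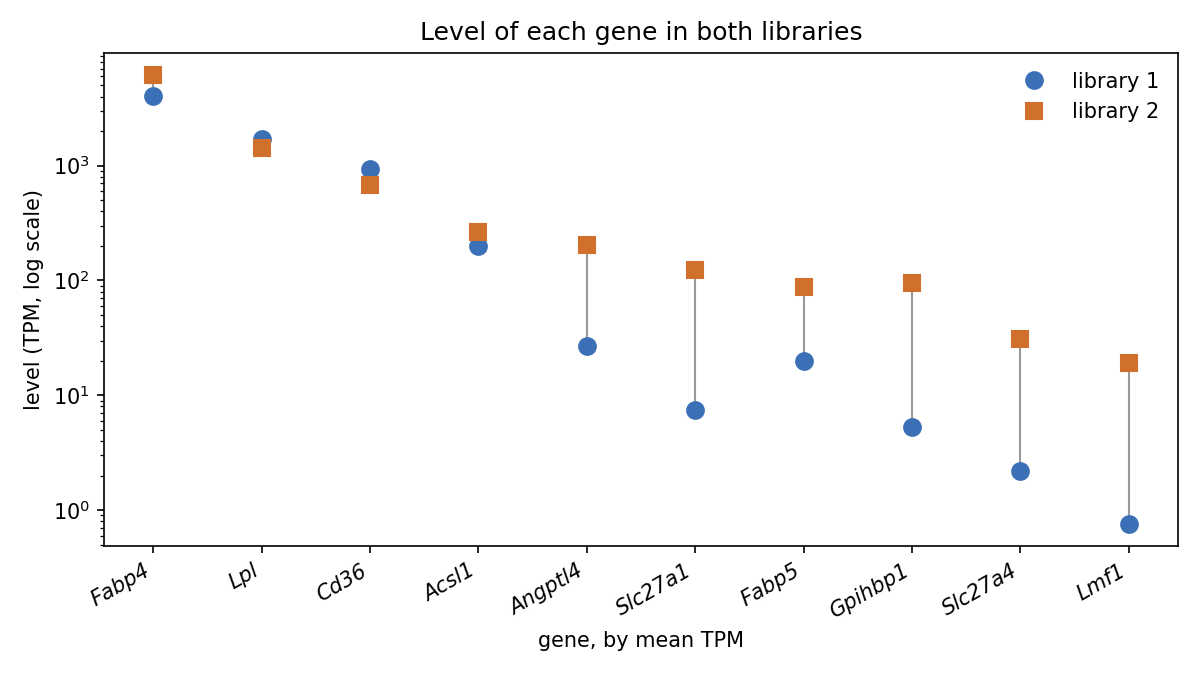
Level of each of the 10 genes in TPM (log axis) in library 1 (circles) and library 2 (squares), in order of mean TPM, with a line joining the values of a gene. Each of Fabp4, Lpl, Cd36 and Acsl1 has its points close together, while those of the 6 genes to their right lie further apart, with library 2 higher. Fabp4 and Acsl1 are also higher in library 2 in TPM, and Lpl and Cd36 are lower.

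To compare the libraries gene by gene, the count of library 2 was set against that of library 1 after scaling, and a gene was called higher or lower where the exact binomial test passed an adjusted p of 0.05 and the change was at least 2-fold. Counting error is the only error in this test, which sets one library against the other. Of the 10 genes, 6 were called higher in library 2 (Angptl4, Fabp5, Gpihbp1, Lmf1, Slc27a1 and Slc27a4), against 30.1% of the 18275 genes tested. A further 2, Cd36 and Lpl, were called lower, against 18.4% of all genes tested, a share near that of all genes. Fabp4 and Acsl1 were called neither way. The median log2 ratio was 1.46 over the 10 genes and 0.02 over all genes tested. All 10 passed the filter of 10 counts in sum.

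**Figure D2:**
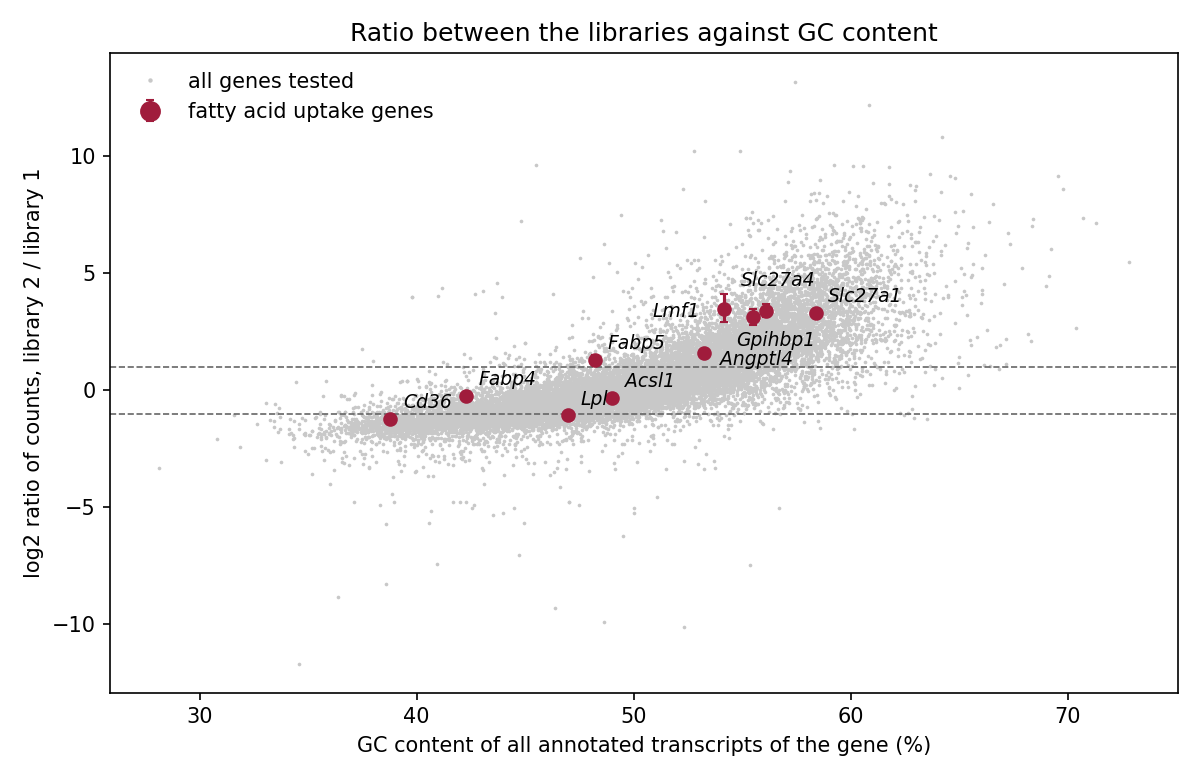
Log2 ratio of counts, library 2 over library 1, against the GC content of all annotated transcripts of a gene (%), for all genes tested (grey) and the 10 genes (red, with 95% exact intervals). Dashed lines mark 2-fold. Ratios of the 10 genes were mostly higher at higher GC content, from Cd36 at 38.8% GC to Slc27a1 at 58.4% GC. Of the 10, 4 lay inside the quartiles of genes within 1% of their own GC content.

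The GC content of a gene's transcripts moved with this ratio. Across the 10 genes, GC content and log2 ratio had a Spearman rho of 0.855 and a Pearson r of 0.892, as a description over 10 genes measured in the same pair of libraries. When the median ratio of genes of like GC content was subtracted, 4 of the 10 genes were still called higher (Fabp5, Gpihbp1, Lmf1 and Slc27a4) and 0 lower. By the same step 9.52% of 18147 genes were called higher and 8.18% lower, and the median of the 10 genes was 0.76. Cd36, Angptl4, Slc27a1 and Acsl1, 4 of the 10 genes, had a ratio inside the 25th to 75th percentile of genes within 1% of their own GC content. GC content here was that over all annotated transcripts of a gene. Calls at the GC content of the leading transcript were not tested and could differ.

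Lpl, the lipase itself (ENSMUSG00000015568, mm10 chromosome 8, 68880491 to 68907448, plus strand), stood at 1690 TPM in library 1 against 1422 TPM in library 2, from 113486 and 70890 counts. It was high in both libraries, at rank 46 and rank 81 among all mouse genes. The scaled log2 ratio was -1.07 (95% exact interval -1.08 to -1.05), just past the 2-fold threshold. Genes of like GC content had a median of -0.55, and the ratio of Lpl was -0.52 after the GC trend was removed, which no longer reached 2-fold. The trend for Lpl was read at 47.0% GC, over all its annotated transcripts. Lpl-201, which took 99.9% and 90.6% of the gene, has 43.5% GC, and the ratio against genes of that GC content was not tested.

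Its partners were far lower and differed more between the libraries. Gpihbp1, the endothelial anchor that carries the lipase across the capillary wall (ENSMUSG00000022579, chromosome 15, 75596628 to 75599481, plus strand), had 77 counts in library 1 (exact Poisson interval 60.8 to 96.2) and 887 in library 2. These counts gave 5.27 and 95.98 TPM, and library 2 was thus the higher one. The scaled log2 ratio was 3.13 (2.80 to 3.49), against 1.87 for genes of like GC content. With the GC trend removed it was 1.17 and still past 2-fold.

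Endothelial markers were followed beside it, since Gpihbp1 is a gene of capillary endothelium. All 12 capillary markers reached 1 TPM in each library, and their sum was 167 TPM in library 1 but 557 TPM in library 2. Among them 6 were called higher and 1 lower, with a median log2 ratio of 0.75. With the GC trend removed 1 was called higher and 0 lower, and the median was 0.25. Cldn5, a tight junction protein of endothelium, stood at 1.05 and 47.9 TPM and stayed called higher, while Emcn, an endothelial sialomucin, stood at 40.1 and 24.04 TPM and lost its call, at -0.39. The part of the endothelial share in the Gpihbp1 values was not tested.

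Lmf1, which encodes the maturation factor of the lipase (ENSMUSG00000002279, chromosome 17, 25579085 to 25662826, plus strand), was the lowest of the 10 genes. Library 1 held 27 counts (17.8 to 39.3) and library 2 held 400, which gave 0.76 and 19.06 TPM, so that Lmf1 alone of the 10 genes was under 1 TPM in a library. The log2 ratio was 3.48 (2.94 to 4.12). Of genes of like GC content 95.1% had a lower ratio, and removing the GC trend left 2.10. The GC content used was 54.2%, over all annotated transcripts of Lmf1, while Lmf1-202, which led in library 2, has 57.1%. Whether the call would hold at that GC content was not tested.

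Angptl4, the secreted inhibitor of the lipase (ENSMUSG00000002289, chromosome 17, 33773750 to 33781830, minus strand), had 1290 counts in library 1 against 5135 in library 2. Its level was thus 26.8 TPM in the former library and 205 TPM in the latter. The log2 ratio of counts was 1.61 (1.52 to 1.69), and it was 0.58 and under 2-fold with the GC trend removed. In TPM the levels differed 7.67-fold and in unscaled counts 3.98-fold. The effective length, by which counts are divided to give TPM, was 2817 bases in library 1 and 1868 bases in library 2 for this gene. That length follows the mix of transcripts assigned to the gene, which differed between the libraries as described below.

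Set against each other, Lpl exceeded its partners in both libraries by very unequal factors. In TPM, Lpl was 321 times Gpihbp1 in library 1 and 14.8 times in library 2. It was 63.2 and 6.93 times Angptl4, and 2224 and 74.6 times Lmf1. The direction held in both libraries and the size did not. Of the summed TPM of these 4 genes, Lpl took 98.1% in library 1 and 81.6% in library 2, and Angptl4 took 1.55% and 11.8%.

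Cd36, the receptor for long-chain fatty acids at the cell surface (ENSMUSG00000002944, chromosome 5, 17781690 to 17888801, minus strand), stood at 939 TPM in library 1 against 682 TPM in library 2, from 53417 and 30000 counts. It was the member with the least GC, at 38.8%. The log2 ratio was -1.22 (-1.24 to -1.20), close to the median of -1.44 for 476 genes of like GC content. With the GC trend removed it was 0.34, in the opposite direction and not called.

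Slc27a1 and Slc27a4, the 2 transport proteins of the FATP family among the 10 genes, were lower than Cd36 in TPM and were called higher in library 2. Slc27a1, which encodes FATP1, an insulin-responsive acyl-CoA synthetase and transporter of fat and muscle (ENSMUSG00000031808, chromosome 8, 71568882 to 71587302, plus strand), had 334 and 4335 counts, or 7.49 and 124 TPM. The log2 ratio of 3.31 (3.15 to 3.48) was near the median of 3.08 for genes of like GC content, and was -0.03 with the GC trend removed. Slc27a4, which encodes FATP4 (ENSMUSG00000059316, chromosome 2, 29802634 to 29817522, plus strand), had 114 and 1587 counts, or 2.21 and 31.2 TPM. Its log2 ratio was 3.41 (3.14 to 3.70) and remained past 2-fold, at 1.21, with the GC trend removed. That trend was read at 56.1% GC, over all annotated transcripts of Slc27a4, while the leading Slc27a4-201 has 56.8%. Whether the call would hold at that GC content was not tested. The ratio of Slc27a1 to Slc27a4 was similar in both libraries, at 3.39 and 3.98 in TPM, whereas Cd36 was 125 times Slc27a1 in library 1 and 5.50 times in library 2.

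Within the family of 6 genes, Slc27a1 took the largest share of summed TPM in both libraries, 46.1% and 72.9%. Slc27a2, a very long-chain synthetase best known from liver and kidney, followed in library 1 with 35.4%, or 5.75 TPM, and held 5.57% of the family in library 2, where its own level was 9.48 TPM. Slc27a4 took 13.6% and 18.3%. Slc27a5, the bile acid-CoA ligase of liver, had 0 counts in library 1 and 2 counts in the other.

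Acsl1, the main long-chain acyl-CoA synthetase of adipocytes (ENSMUSG00000018796, chromosome 8, 46471037 to 46536051, plus strand), differed little between the libraries. Its 199 TPM in library 1 and its 266 TPM in library 2 came from 11806 and 12428 counts. With the mitochondrial genes and copies left out they were 412 and 316 TPM, in the opposite order. The log2 ratio of -0.31 (-0.35 to -0.28) lay within the quartiles of genes of like GC content, -0.53 to 0.26. Its sign depended on the scaling, since scaling to total counts gave 0.13.

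Among the 5 ACSL genes Acsl1 was first in both libraries, with 57.3% and 74.8% of summed TPM. Acsl4, which prefers arachidonic acid, stood at 58.1 and 37.3 TPM, or 16.7% and 10.5% of the family. Acsl3, a synthetase of the endoplasmic reticulum and lipid droplets, stood at 63.1 and 18.9 TPM. Its counts were not whole numbers, so it shares reads with another entry and is uncertain. Acsl5 took 7.44% and 8.57%, and Acsl6, known from brain, under 1% in both.

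Fabp4, the fatty acid carrier of adipocytes also known as aP2 (ENSMUSG00000062515, chromosome 3, 10204088 to 10208576, minus strand), had 57541 counts in library 1 against 63837 in library 2. Its level was 4072 TPM and 6105 TPM, at rank 24 and rank 17 of all mouse genes. With the mitochondrial genes and copies left out, library 1 was the higher one, at 8430 TPM against 7257 TPM. The log2 ratio of -0.24 (-0.25 to -0.22) was not called. Its direction depended on the scaling: it was 0.20 with total counts and 0.93 with the GC trend removed. Genes of like GC content had a median of -1.16, and 94.6% of those 1308 genes had a lower ratio than Fabp4. The GC content used was 42.3%, over all annotated transcripts of Fabp4, while the leading Fabp4-201 has 40.3%. The ratio against genes of that lower GC content was not tested.

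Fabp5, the epidermal type carrier that macrophages and endothelium also express (ENSMUSG00000027533, chromosome 3, 10012548 to 10016607, plus strand), was far lower. Library 1 held 307 of its counts and library 2 held 993, which gave 19.98 and 87.5 TPM. Its count in library 1 was not whole before rounding, so some reads were shared with another entry and its values are uncertain. The log2 ratio was 1.30 (1.12 to 1.496), while genes of like GC content had a median of -0.30. It was 1.54 with the GC trend removed, and 97.4% of genes of like GC content had a lower ratio. The GC content used was 48.2%, over all annotated transcripts of Fabp5, while Fabp5-201, which led in both libraries, has 45.6%. Macrophage markers summed to 368 TPM in library 1 but to 1144 TPM in library 2, with 11 of 12 reaching 1 TPM in each and a median log2 ratio of 1.01, or 0.36 with the GC trend removed. Their part in the Fabp5 values was not tested.

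Fabp4 and Fabp5 lie in a cluster of 5 genes on chromosome 3, in the order Fabp5, Pmp2, Fabp9, Fabp4 and Fabp12, over 288636 bases (10012548 to 10301183). The levels of these neighbours differed by orders of magnitude. Pmp2, the myelin protein of Schwann cells, had 0 counts in both libraries. Fabp9, the carrier of sperm and testis, stood at 60.6 and 50.7 TPM and shares reads, so it is uncertain. Fabp12 stood at 1.49 and 2.78 TPM. Of the summed TPM of all 10 genes of the family, Fabp4 took 97.97% in library 1 against 97.6% in library 2. Fabp5 took 0.481% and 1.40%, so the ratio of Fabp4 to Fabp5 was 204 in library 1 and 69.8 in library 2.

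**Figure D3:**
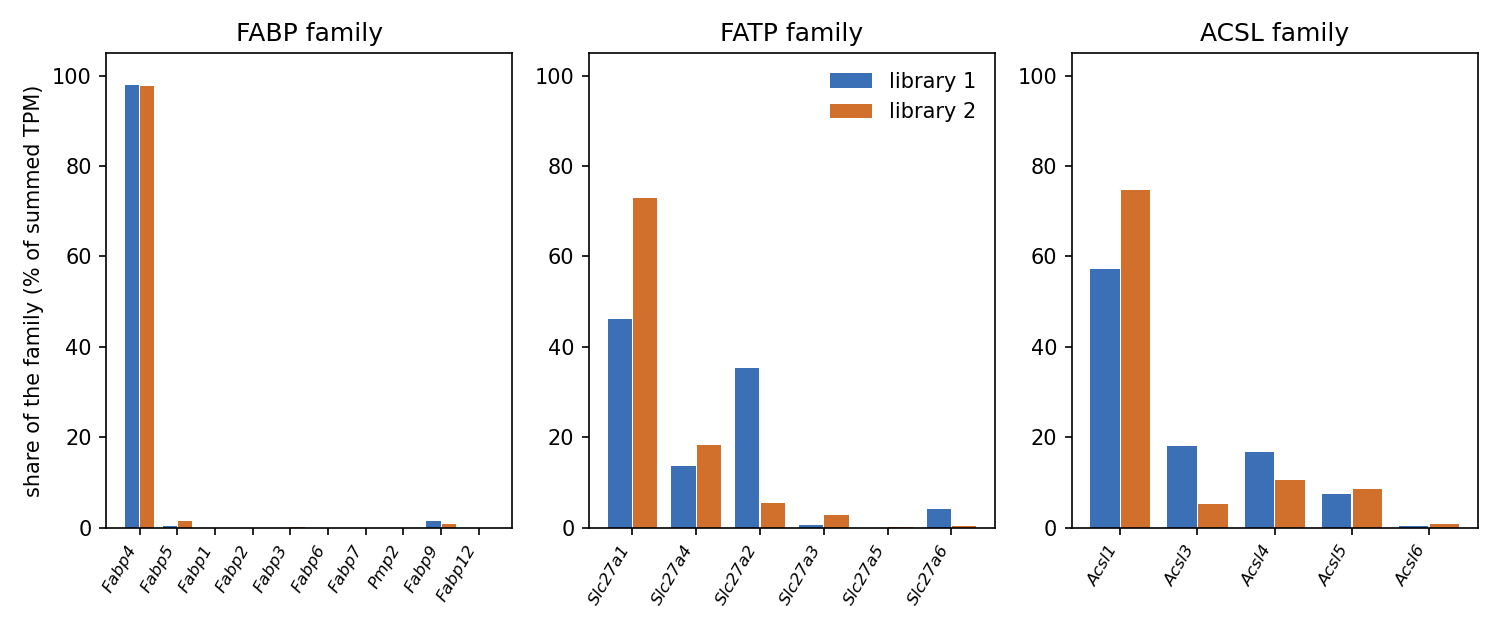
Share of the summed TPM of the FABP, FATP and ACSL families taken by each gene (%) in library 1 and library 2. Fabp4, Slc27a1 and Acsl1 have the highest bar of their family in both libraries, and the share of Slc27a2 is 35.4% in library 1 and 5.57% in library 2.

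The split of a gene into its annotated transcripts was estimated by the authors' quantification, and of the 10 genes Angptl4 differed most between the libraries. Angptl4-201, which encodes the full protein, took 96.7% of the gene in library 1 and 20.04% in library 2. Angptl4-202, annotated as subject to nonsense-mediated decay, the route that degrades messages with an early stop, took 2.67% and 76.5%. Its expected counts were 20.4 and 3521. Where both are annotated, they differ by 4 bases at the start of exon 3, shown here across the junction of exon 2 and exon 3 with the 4 additional bases of Angptl4-201 in capitals (5′ to 3′, minus strand, chr17:33780631-33780795 with the intron left out).
Angptl4-201: tcttcagagccagATAGacctcttggcccc
Angptl4-202: tcttcagagccagacctcttggcccc
The annotated coding length was 1230 bases, or 410 codons, for Angptl4-201 and 462 bases, or 154 codons, for Angptl4-202.

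Those transcripts also differ at their ends, where base composition differs. Angptl4-201 holds 1158 bases at its 3′ end (chromosome 17, 33773750 to 33774907) that Angptl4-202 lacks, with a GC content of 40.5% against 56.4% for the bases both share. At the 5′ end it holds a further 287 bases with 55.4% GC. The deposited length of Angptl4-201 was 3053 bases and that in M21 was 3308, so the ends of the deposited model were not the same. Reads across the exon 3 junction were not counted here, and whether the shift came from that junction or from the 3′ end was not tested.

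Lpl also had a transcript annotated for decay that took a larger share in library 2, at a smaller size. Lpl-201 took 99.9% of the gene in library 1 and 90.6% in library 2, and Lpl-203, the one annotated for nonsense-mediated decay, took 0.09% and 9.34%, from 42.5 and 3051 expected counts. Both transcripts have the same annotated coding segment. Lpl-201 carries a 3′ stretch of 2367 bases (chromosome 8, 68904568 to 68906934) with 37.9% GC that Lpl-203 lacks, against 51.4% for the bases they share, and Lpl-203 ends in 216 bases of its own. In both Angptl4 and Lpl, the transcript that gained most share in library 2 was one that lacks a 3′ stretch of low GC content. Lpl-201, which carries that stretch, still led in library 2.

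The transcripts of Cd36 share 1 coding segment. They differ in the first exon, in the number of exons (15 or 16) and in length (2677 to 3399 bases in M21). The first exons are 37 to 136 bases long, so the transcripts also differ outside them. Cd36-203, whose first exon lies 59853 bases upstream of the coding start, took 59.3% in library 1 and 30.7% in library 2. Cd36-204 and Cd36-202, whose first exons overlap and end at the same base, took 20.4% and 15.0% in library 1 and 38.1% and 25.4% in library 2. Cd36-201, which starts 6802 bases upstream, took 5.25% and 5.81%. The deposited lengths of Cd36-201, Cd36-202 and Cd36-203 differ from those in M21, so these exon positions apply to M21.

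For Gpihbp1, 5 transcripts were assigned reads, and Gpihbp1-201 took 49.6% in library 1 and 67.4% in library 2. With 77 counts in library 1 these shares are coarse. Gpihbp1-202, a retained intron form, took 25.3% and 11.2%, and Gpihbp1-205 and Gpihbp1-204 had 0 counts in library 1.

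In the other genes a single transcript led in both libraries. It was Fabp4-201 with 96.5% and 97.9%, Fabp5-201 with 95.7% and 98.0% and Acsl1-201 with 92.3% and 93.1%. Slc27a1 has only 1 annotated transcript, Slc27a1-201, so its 100% in both was fixed in advance. Slc27a4-201 took 74.4% and 98.0% of TPM, where library 1 held 114 counts for the gene. By expected counts it took 95.4% and 99.7%. The short Slc27a4-202, of 722 bases, had 5.19 and 4.43 expected counts, so this shift rests on few reads. Lmf1-202 took 70.4% and 86.0%, from 15.4 and 367 expected counts, but 21.4% and 74.8% by posterior mean TPM, so its share in library 1 is not settled. Shares of TPM give short transcripts weight: the retained intron form of Fabp4 took 3.52% and 2.08% of TPM but 17.2% and 10.8% of the expected counts.

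A change of leading transcript was common in these libraries. Among 7275 genes with at least 100 counts in each library and more than 1 transcript, the leading transcript differed in 2187, or 30.1%. Of the 7 members that met this limit, it differed in 2, Angptl4 and Cd36, a share close to that of all genes. Of the leading pair of transcripts, the one richer in GC gained share in library 2 in 69.8% of 6780 genes and in 3 of 7 members, which were Angptl4, Lpl and Slc27a4.

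**Figure D4:**
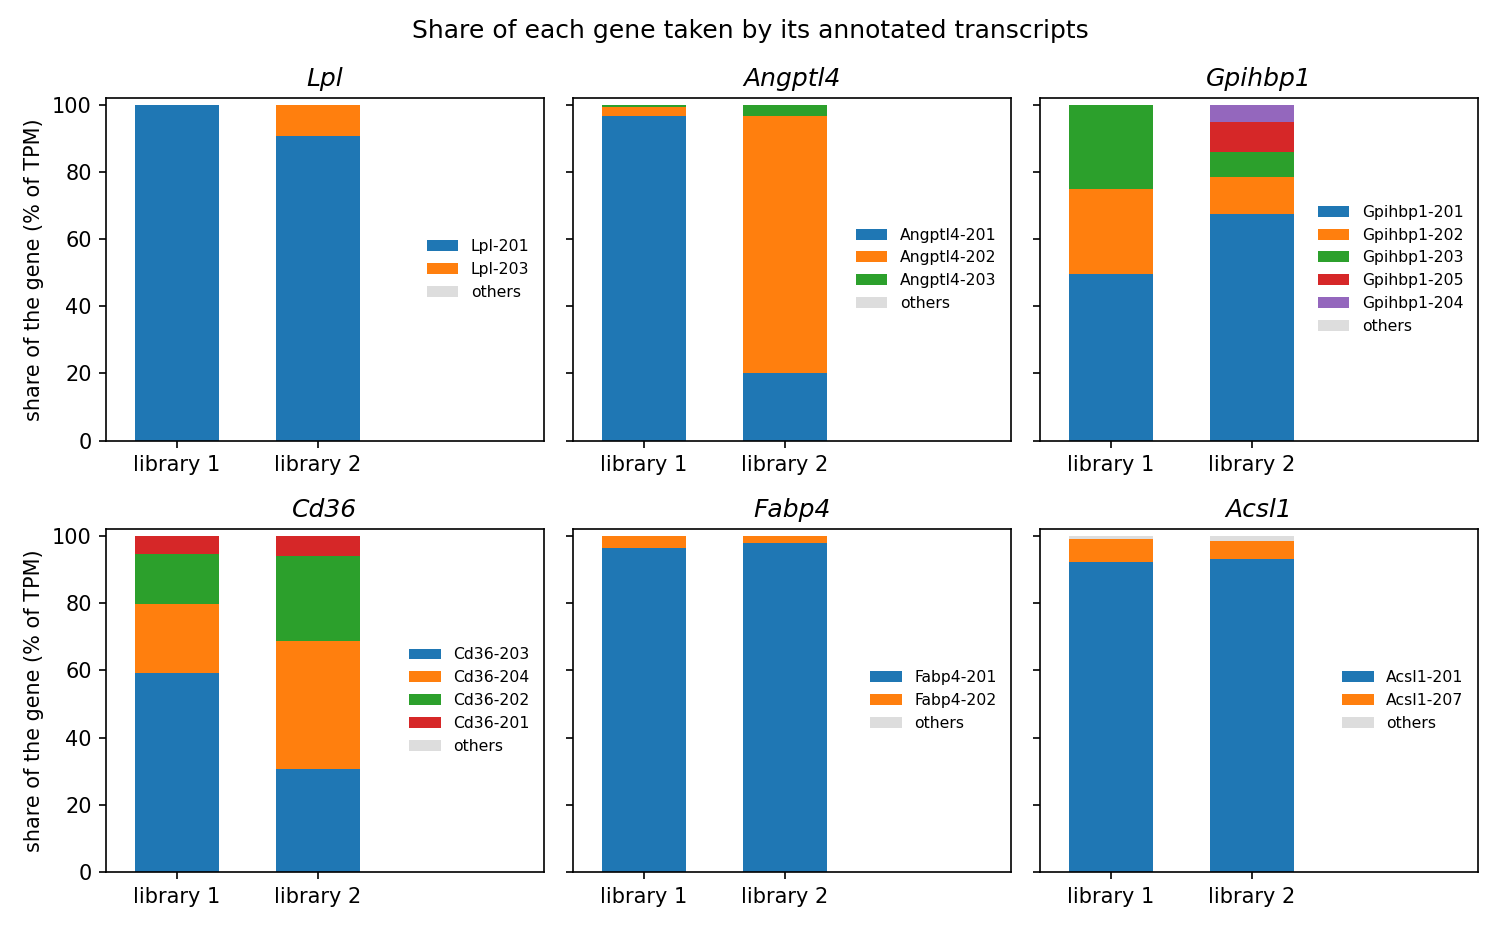
Share of the TPM of a gene taken by each annotated transcript (%) in library 1 and library 2, for 6 of the 10 genes. Angptl4-201 takes 96.7% in library 1 and 20.04% in library 2, and Cd36-203 goes from 59.3% to 30.7%, while Fabp4 and Acsl1 change little.

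Other genes of the same route were followed as lists. Of the regulators of the lipase and the partners of lipoproteins, 21 of 22 could be tested, 14 were called higher in library 2 and 1 lower, with a median log2 ratio of 2.30. With the GC trend removed 4 were called higher and 0 lower, with a median of 0.60. Over all genes tested the shares were 30.1% higher and 18.4% lower, and 9.52% and 8.18% with the GC trend removed, beside this list and those that follow. Apoe, the apolipoprotein of remnants, stood at 58.5 and 3174 TPM and Hspg2, which encodes perlecan, at 0.50 and 104 TPM. Hspg2 was still called higher after the GC trend was removed, at 1.96, and Apoe was not, at 0.81. Sort1, a sorting receptor, stood at 151 and 285 TPM with a log2 ratio of 0.20, which was not called. Apoa5 had 0 counts in both libraries.

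The remaining members of the carrier, transporter and synthetase families were mostly low. Of 11 other lipid-binding genes 6 could be tested, and 3 were called higher and 0 lower, or 0 and 1 with the GC trend removed. Rbp4, the plasma carrier of retinol, stood at 81.2 and 209 TPM with a log2 ratio of 0.64, which was -2.05 and called lower with the GC trend removed. The 3 called higher were Fabp3, the heart and muscle carrier, at 1.84 and 8.89 TPM, Crabp1 at 0.57 and 4.59 TPM and Crabp2 at 0.94 and 3.30 TPM. The last pair binds retinoic acid. Counts were low, at 20 and 76 for Fabp3, 6 and 38 for Crabp1 and 12 and 33 for Crabp2. Among the other FATP genes, 3 of 4 were tested. Slc27a3 was called higher at 0.10 and 4.76 TPM, from 3 and 114 counts. Slc27a6 was called lower at 0.69 and 0.49 TPM, from 27 and 15 counts. Neither was called with the GC trend removed. Among 11 other acyl-CoA synthetases, 2 were called higher and 3 lower, with a median of -0.34, or 0 and 1 with a median of 0.03 with the GC trend removed. Acsbg1 stood at 3.30 and 34.5 TPM, and the lowest ratios were those of Acsl4 and Acsl3, both at -1.38. Removing the GC trend left 0.17 and -0.36 for this pair and 0.33 for Acsbg1, and none of the 3 was called.

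Partners at the membrane and in the acyl-CoA pool, and the nuclear receptors, were also measured. Of 21 membrane and acyl-CoA partners, 9 were called higher and 1 lower, and the median was 0.33, or 3 and 1 with a median of 0.28 with the GC trend removed. Dbi, the acyl-CoA-binding protein, stood at 827 and 1595 TPM, and Cav1, the caveolar coat protein, at 802 and 885 TPM, and neither was called. Acot7, an acyl-CoA thioesterase, was called higher at 2.66 and 31.1 TPM and Acbd5, a peroxisomal acyl-CoA-binding protein, lower at 53.9 and 34.4 TPM, and both lost the call with the GC trend removed, at 0.35 and -0.14. Of 12 nuclear receptors and partners, 8 were called higher and 2 lower, with a median of 1.75. With the GC trend removed 2 were called higher and 2 lower, with a median of -0.19. Pparg, the receptor that drives Fabp4, Lpl and Cd36 in adipocytes, stood at 40.6 and 54.3 TPM, with a log2 ratio of -0.34 that was not called. Cebpa stood at 22.8 and 121 TPM. Its ratio was 1.66 and called higher, and -2.55 and called lower with the GC trend removed. Ppard stood at 0.44 and 27.9 TPM, and was still called higher with the GC trend removed, at 2.46. Ppargc1a, at 2.85 and 2.09 TPM, was called lower and lost the call, at -0.70.

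Markers of the cells that could carry these genes differed between the libraries to unequal degrees. Of the 12 adipocyte markers, 9 were called higher in library 2 and 0 lower, with a median log2 ratio of 2.20, or 3 and 0 with a median of 0.60 with the GC trend removed. Brown adipocytes and skeletal muscle also use Lpl, Cd36 and Slc27a1. Of 9 brown adipocyte markers 1 reached 1 TPM in each library, and their sum was 4.55 and 33.0 TPM. Of 8 skeletal muscle markers 2 did, with a sum of 25.3 and 47.9 TPM, and Myh4, a fast myosin, had 0 counts in both. Markers of sperm-forming cells, in which Fabp9 is known to be expressed, summed to 319 and 1512 TPM, with all 12 at 1 TPM in each. Median log2 ratios were 0.69 for this list, 1.45 for brown adipocyte markers and 2.30 for skeletal muscle markers. With the GC trend removed they were 0.55, -0.39 and 1.54. General epithelial markers summed to 142 and 924 TPM (5 of 6 reached 1 TPM in each), and mesothelial markers to 61.5 and 124 TPM (5 of 5). The scaled ratios did not all follow the TPM sums. Mesothelial markers had a median log2 ratio of -0.28, with 2 called higher and 1 lower, or -0.04 with the GC trend removed. For epididymis epithelium the median was -0.62, with 1 called higher and 2 lower, or 0.05. For general epithelial markers it was 3.28, with 4 called higher and 0 lower, or 0.84. The part of these cells in the levels of the 10 genes was not tested.

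**Figure D5:**
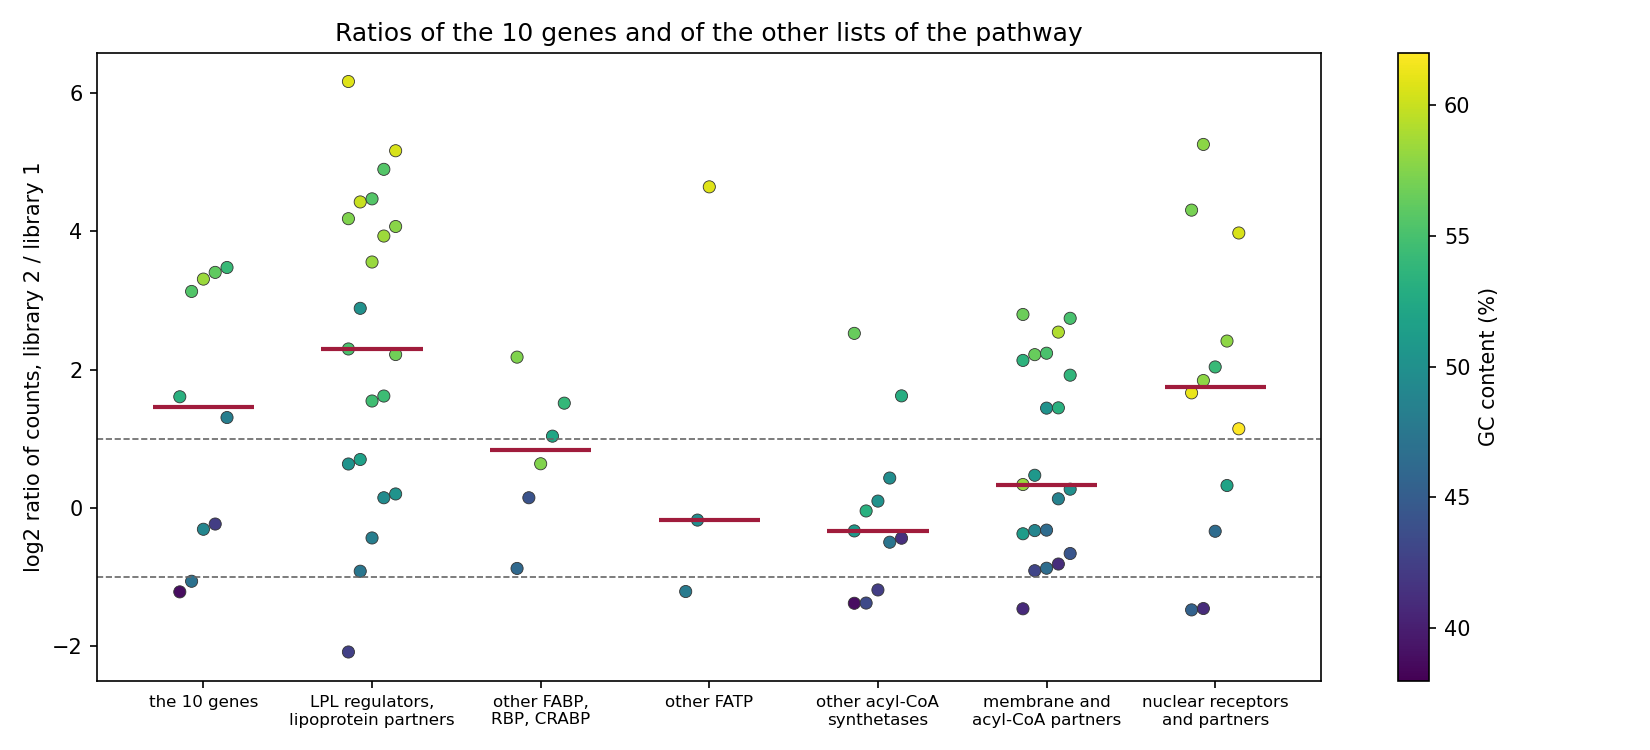
Log2 ratio of counts, library 2 over library 1, of the 10 genes and of the tested members of 6 other lists of the pathway, coloured by GC content (%). Red bars are medians and dashed lines mark 2-fold; the highest point is Hspg2 at 6.17, and points above the upper line are mostly those of higher GC content.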

How the data were processed

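Polyadenylated RNA of 1 biosample was sequenced as 2 technical libraries, and mm10 with annotation M4 was used, per the text files of the deposit. Which aligner and quantifier were used is not given in the sources used here. For genes and transcripts the authors deposited expected counts (estimates, not always whole), TPM, FPKM, and the share of each transcript in its gene as a percent, per the file headers. Of 69691 entries, 26345 without a mouse gene identifier held 0 and 2 counts and were left out. Symbols, coordinates, GC content and sequences came from GENCODE M21 on the same assembly, which matched 42462 of 43346 identifiers; 34 of 42 transcripts of the members had the same length in both releases.

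Expected counts were rounded. Genes with at least 10 counts in sum were compared by an exact binomial test, two-sided, with TMM effective library sizes (edgeR 4.0.16) and Benjamini-Hochberg adjustment over all genes, at an adjusted p of 0.05 and 2-fold. Log2 ratios added 0.5 to each count, and their 95% intervals are Clopper-Pearson. Intervals of counts are exact Poisson intervals. No source used here names molecular identifiers, so reads may repeat molecules and intervals cover counting error only. A count not whole within 0.005 was taken to share reads. The GC trend was removed as the median in 40 bins of GC content. GC content was taken over all annotated transcripts of a gene, whatever their share of the gene. Alternatives were other scalings (DESeq2 1.42.0 size factors, total counts), filters, thresholds, pseudocounts, posterior mean values, FPKM and edgeR's exact test at an assumed dispersion of 0.01. R 4.3.3, Python 3.11.15, numpy 2.4.6, pandas 2.3.3 and scipy 1.17.1 were used.

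The members, the lists and the tests were chosen with earlier results of these data known. Named genes are all members and, for each list, the 2 with the highest mean TPM and the largest and smallest ratios among called genes; 1 gene that this rule names is not reported here.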

Additional observations from a re-analysis of the deposited data

How the results depend on the processing

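The same 6 genes were called higher and the same 2 lower under DESeq2 size factors, both other filters, posterior mean counts, the edgeR exact test, the 1.5-fold threshold and both other pseudocounts. The count called lower was 0 with total counts, with the GC trend removed and at 4-fold. Over all genes, 1728 were called higher with the GC trend removed and 3398 at 4-fold. Lower calls over all genes were 1176 with total counts, 1484 with the GC trend removed, 5412 at 1.5-fold and 337 at 4-fold. Total counts moved every ratio by 0.44, so that 85.2% of calls were higher in place of 62.1%. The log2 ratio changed sign for Cd36 (0.34) and Slc27a1 (-0.028) with the GC trend removed, for Fabp4 with total counts (0.20) and with the GC trend removed (0.93), and for Acsl1 with total counts (0.13). Lpl was at -0.63 with total counts, under 2-fold. Fabp4 took 98.3% of its family by expected counts. Without the mitochondrial genes and copies, mean levels were 2595 TPM for Lpl, 1377 for Cd36, 7844 for Fabp4 and 364 for Acsl1, and the libraries changed order for Fabp4 and Acsl1. By posterior means Lmf1-202 took 48.1% of its gene. The causes of these changes were not tested, except that a stricter fold leaves fewer calls by construction. Leaving out a library gives the values of the other, as printed. Counts of 27 for Lmf1 and 77 for Gpihbp1 limit the precision of their values in library 1. No paired analysis was possible because there is a single group.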
